A study of Mus musculus with 16 samples.

Results

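The arrays described here are the 8 hybridisations of wild-type mouse fibroblast RNA, out of 16 arrays in all, and they fell into 2 sets of 4. WT replicates 1, 2, 5 and 6 are called set A, and WT replicates 3, 4, 7 and 8 are called set B. The members were chosen by the log2 ratios of these same arrays, in which the sets were seen. The labels do not explain the sets, so the differences between them are given as a description, without a test. Within each set 2 arrays carried the sample in Cy5 and 2 carried it in Cy3.

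The study hybridised total RNA from cells labelled WT or M833 to two-colour arrays together with a common reference RNA, with 8 arrays per cell type and swapped dyes. The series title speaks of mutations of Met, the gene of the receptor for hepatocyte growth factor, in mouse embryonic fibroblasts. The sources used here do not say what M833 stands for, how old the embryos were, how the cells were grown or what the reference was made of, and no array carried a probe under the symbol Met. The labels name no separate cultures or animals, so every p-value below measures the spread from array to array, which may be technical. Every value below is a log2 ratio of sample to reference, a direction that the titles make likely but that no label states, and a difference is a difference of such ratios. The level of one gene cannot be set against that of another on this scale.

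Embryonic fibroblasts are mesenchymal cells that are dissociated from the embryo and grown on plastic in serum. They secrete collagens, proteoglycans and the proteases that remodel them, they divide for a limited number of passages, and their actin stress fibres and contractile proteins respond to serum and stiffness through serum response factor. Cultures from different embryos or passages are known to differ in growth rate and in the make-up of their mesenchymal cells. In RNA from bulk cultures, fewer cells of a type and less RNA per cell cannot be told apart.

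A feature, which is a named gene or a probe without a single symbol, was counted as apart when both arrays of one set exceeded both arrays of the other in each dye orientation, in the same direction. Of 12761 features 4979 were apart, or 39%, with 2644 higher in set A (20.7%) and 2335 higher in set B (18.3%). Among the 7114 named genes, from which the lists below were drawn, 24% were apart and higher in set A and 23.8% in set B. The differences were mostly small. The median size was 0.125 over all features and 0.236 over those apart, beside a median SD of 0.0699 between the arrays of set A and 0.0715 between those of set B after the effect of dye. A difference of at least 1, which is a doubling of the ratio, was found for 42 features higher in set A (0.329%) and 36 higher in set B (0.282%). The same split of the M833 arrays, replicates 1, 2, 5 and 6 against 3, 4, 7 and 8, put 1695 features apart (13.3%). These M833 arrays may differ as sets too, so that share is not a chance level, and none is given here.

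Over all probes, arrays of one set and one dye correlated with r between 0.968 and 0.973, leaving aside WT replicate 2. Arrays of different sets with the same dye correlated with r from 0.89 to 0.90 in Cy5 and from 0.916 to 0.926 in Cy3. WT replicate 2 reached only 0.829 with WT replicate 1 and from 0.718 to 0.829 with the 15 other arrays. These are correlations across probes, which share the reference and the array design. In 3 of the 4 pairs of WT arrays of one set and dye the slide numbers in the titles followed each other. Slide and set cannot be told apart there. The remaining pair, WT replicates 5 and 6 of set A, did not follow each other. The slide of WT replicate 6 came instead next to that of WT replicate 7 of set B, so slide order did not follow the sets throughout.

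WT replicate 2 held 49 values above 8, which were left out, and another 74 between 4 and 8, which stayed in. On the other arrays the highest value was 4.73. The highest values kept were those of Mdh1, a malate dehydrogenase gene, at 7.79 and of 2 unnamed probes at 7.87 and 7.98, and the lowest values left out were 8.08 and 8.12 on unnamed probes and 8.12 for Rabgap1. In set B the same 6 probes had medians between -0.37 and 0.72. Without WT replicate 2, 2941 features were apart and higher in set A (23%) and 2611 higher in set B (20.5%), and 32 and 38 of them differed by at least 1 (0.251% and 0.298%).

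**Figure D1:**
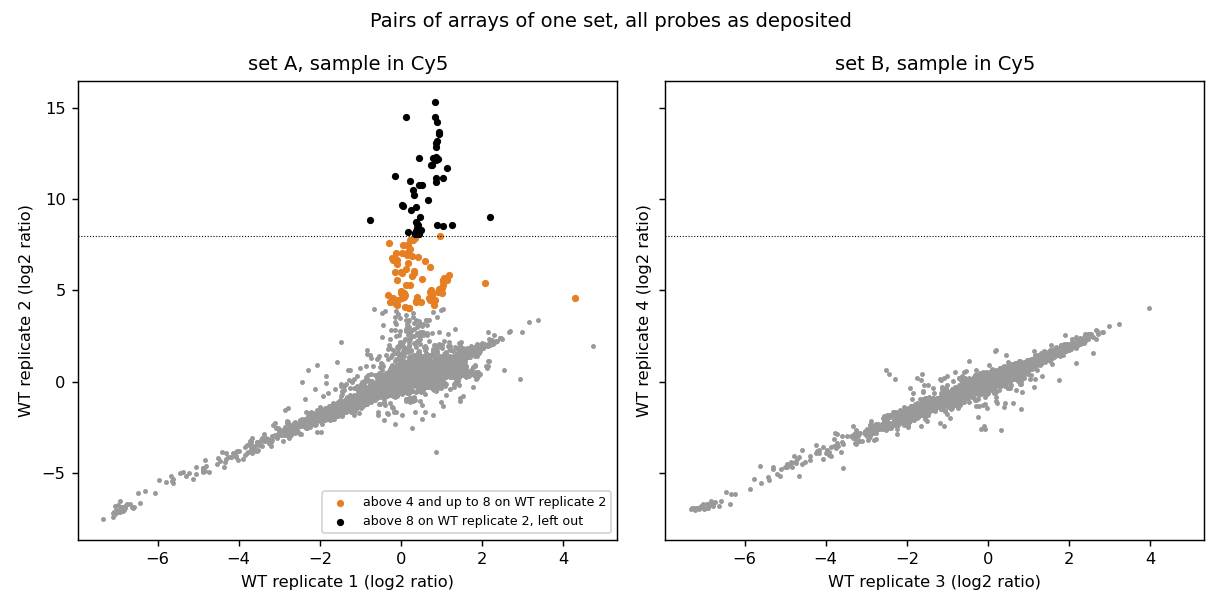
Log2 ratios of all probes as deposited, for the Cy5 pair of set A (WT replicate 2 against WT replicate 1, left) and of set B (WT replicate 4 against WT replicate 3, right). Each point is a probe; black points are the 49 values above 8 that were left out and orange points the 74 values between 4 and 8, a column of high values that the pair of set B lacks.

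The difference between the sets was read once in each dye orientation. The difference in Cy5 and the difference in Cy3 correlated across 12761 features with r = 0.557, and with r = 0.631 without WT replicate 2, as a description. Over the 613 features apart by at least 0.5 it was 0.863, a figure that the choice of features with the same sign in both orientations raises. The interaction of set and dye, which the choice of the sets did not use, was called for 0 features by limma at an adjusted p under 0.05 (0%), with 766 features at an unadjusted p under 0.05 where 638 would be expected. Without WT replicate 1 it was called for 376 features and without WT replicate 2 for 99, so this count rests on the arrays that enter it. With 2 arrays per set and dye the test could miss all but large interactions, and a count of 0 does not show that the sets differed alike in both dyes.

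**Figure D2:**
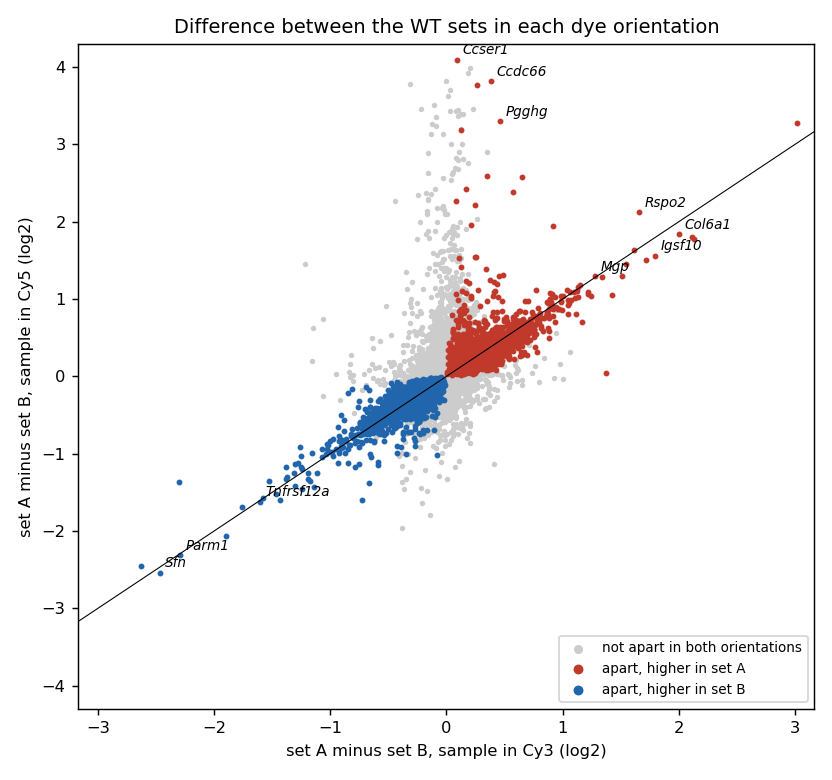
Difference of set A minus set B (log2) with the sample in Cy5 (vertical axis) against the same difference with the sample in Cy3 (horizontal axis), each point a feature and the line marking equality. Rspo2, Col6a1, Sfn and Parm1 lie near the line in both orientations, and Ccser1, Ccdc66 and Pgghg lie far above it, with differences of 4.09, 3.82 and 3.30 in Cy5 and 0.09, 0.39 and 0.46 in Cy3.

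The 8 genes that mark the sets encode secreted, membrane and signalling proteins. They were chosen for this difference, so the values that follow describe it and support nothing. Rspo2 encodes an R-spondin, a secreted protein that strengthens Wnt signals. It was at 2.69, 2.77, 2.36 and 2.52 on WT replicates 1, 2, 5 and 6 and at 0.58, 0.63, 0.80 and 0.76 on WT replicates 3, 4, 7 and 8. All 4 arrays of set A were well above all of set B, by 1.89 on the log2 scale or 3.70-fold.

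Col6a1, a chain of the beaded-filament collagen VI, was at -0.60, -0.58, 0.38 and 0.25 in set A and at -2.50, -2.36, -1.76 and -1.62 in set B. Its ratio also depended on dye, being higher with the sample in Cy3 in both sets, but the sets did not overlap, and the difference was 1.92, or 3.79-fold. Igsf10, an immunoglobulin superfamily gene expressed in mesenchyme, was at 0.17, 0.10, 0.46 and 0.47 in set A and between -1.44 and -1.30 in set B. Slc29a1, the equilibrative nucleoside transporter, was at -0.79, -0.86, -0.59 and -0.66 in set A and at -2.56, -2.36, -2.32 and -2.16 in set B. Igsf10 was thus higher in set A by 1.68, or 3.20-fold, and Slc29a1 by 1.62, or 3.08-fold. Ptn encodes pleiotrophin, a heparin-binding growth factor, and was at 1.24, 1.16, 1.50 and 1.56 in set A and at -0.24, -0.36, -0.27 and -0.09 in set B. Set A lay above the reference and set B below it, with a difference of 1.61.

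Of the genes higher in set B, Sfn differed most. It encodes 14-3-3 sigma, a p53 target that is abundant in stratified epithelia. It was at -3.39, -3.21, -3.25 and -3.45 in set A and at -0.77, -0.76, -0.93 and -0.83 in set B, a difference of -2.50 or 5.67-fold. Both sets were below the reference and the gap was many times the SD between arrays, 0.13 in set A and 0.05 in set B. Parm1, a mucin-like membrane protein gene, was at -2.00, -1.93, -1.64 and -1.84 in set A and at 0.38, 0.31, 0.48 and 0.63 in set B, a difference of -2.30 or 4.93-fold. Tnfrsf12a encodes Fn14, the receptor for the cytokine TWEAK, which growth factors and serum induce. It was at 0.69, 0.47, 0.93 and 0.91 in set A and at 2.07, 2.33, 2.46 and 2.58 in set B, a difference of -1.61.

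The mean of M833 lay between the means of the sets for all 8 markers, though single M833 arrays reached into the range of set B for Rspo2. For Col6a1 they did so only across dyes, and within each dye every M833 array was above both arrays of set B. M833 minus WT was called by limma for 25.9% of all features (adjusted p under 0.05 over 12761 features, 16 arrays), with 9.96% higher and 15.9% lower. None of the 8 markers was among them, with adjusted p from 0.165 for Rspo2 to 0.833 for Parm1 and Slc29a1. Sfn was between -2.03 and -1.24 on the M833 arrays, with a median of -1.58. It split them, between -1.39 and -1.24 on replicates 1, 2, 5 and 6 and between -2.03 and -1.77 on replicates 3, 4, 7 and 8. In each dye Rspo2, Col6a1, Ptn, Igsf10, Slc29a1 and Parm1 split these arrays likewise, replicates 3, 4, 7 and 8 being nearer set A. Tnfrsf12a did not, and 13.3% of all features were apart between these replicates. Set against set A alone Sfn was higher in M833 by 1.71, and set against set B alone it differed by -0.79. Rspo2 was between 0.47 and 1.37 on the M833 arrays, and M833 differed by -1.65 from set A and by 0.24 from set B. For Tnfrsf12a these differences were 0.49 from set A and -1.12 from set B, and for Col6a1 they were -1.30 and 0.62. The direction of the labelled comparison therefore depended, for each marker, on which WT set served as control.

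**Figure D3:**
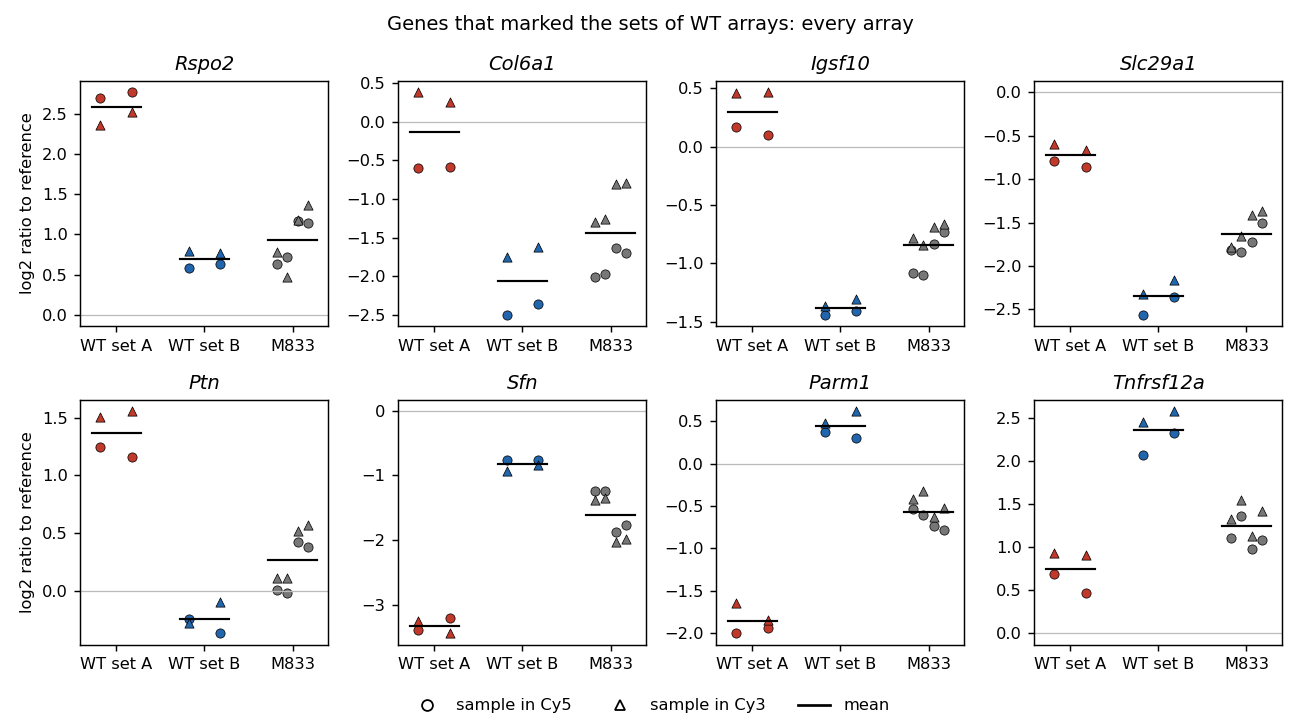
Log2 ratio to the reference of the 8 marker genes on every array of WT set A (4 arrays), WT set B (4 arrays) and M833 (8 arrays), with circles for the sample in Cy5, triangles for Cy3 and a bar for the mean. Set A and set B do not overlap for any of the 8 genes, with means of 2.58 and 0.69 for Rspo2 and of -3.33 and -0.82 for Sfn, and the M833 mean lies between them in each panel.

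Beyond the markers, the named genes with the largest differences higher in set A included Gas1, Mgp, Slc40a1 and Nfix. Gas1, a growth-arrest gene whose product also binds hedgehog proteins, was at 0.45, 0.63, 0.92 and 0.92 in set A and between -0.91 and -0.55 in set B, a difference of 1.50. Mgp, the gene of matrix Gla protein, which keeps soft matrix from calcifying, was at 1.74, 1.67, 1.21 and 1.40 in set A and at 0.39, 0.42, -0.04 and 0.08 in set B. Its difference was 1.29 and no array of set B reached set A. Slc40a1, the iron exporter ferroportin, was higher by 1.24 and the transcription factor gene Nfix by 1.15. Mgp also fell in M833 against WT, by -1.21 ± 0.26 (SE, limma, adjusted p = 0.00258, n = 8 per cell type), with M833 between -0.88 and 0.19. The mean of M833, -0.35, was thus below that of set B, 0.21, and not between the sets.

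The other 6 of the 15 largest named differences on that side rested on WT replicate 2. Ccdc66 was at 7.49 on WT replicate 2 and between 0.18 and 0.38 on the other arrays of set A. Ccser1 was at 7.78 there and Pgghg at 6.03, with the remaining arrays of set A between -0.02 and 0.28. Il1rl2, Spc24 and Ndrg3 were at 3.78, 4.46 and 3.95. Without that array their differences were 0.30 for Ccdc66, 0.18 for Ccser1, 0.39 for Pgghg, 0.60 for Il1rl2, 0.52 for Spc24 and 0.44 for Ndrg3, all under 1.

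Among the 15 largest named differences higher in set B, after Sfn and Parm1, came Igf1, Kcnk1 and Cap1. Igf1, the growth factor gene, was at -2.38, -2.16, -1.98 and -2.03 in set A and at -1.0, -0.80, 1.61 and -1.01 in set B. WT replicate 7 therefore stood far above the other 3 arrays of its set, which were themselves above set A. The potassium channel gene Kcnk1 was at -0.96, -0.87, -0.85 and -1.0 in set A and between 0.71 and 0.86 in set B, a difference of -1.73. Cap1, whose product binds actin monomers and recycles them, was near -1 on every array of set A and at 0.55, 0.66, 0.56 and 0.58 in set B, a difference of -1.57. Others were Bex4 (-1.52), the ion pump regulator gene Fxyd6 (-1.49), the adhesion molecule gene Mcam (-1.44), the p53 target Perp (-1.36), the retinoic acid synthesis gene Aldh1a2 (-1.35), the elastic fibre gene Mfap4 (-1.35), Igfbp3 (-1.34), the thrombin receptor gene F2r (-1.26) and the laminin gene Lama1 (-1.26). All 15 differed by more than 1 without WT replicate 2 as well. Against WT as a whole, M833 was lower for Cap1 by -0.81 ± 0.29 (SE, n = 8 per cell type, limma adjusted p = 0.0483) and higher for Fxyd6 by 0.86 ± 0.27 (adjusted p = 0.0301). Both calls were lost with the sets as a random block (adjusted p = 0.0909 and 0.0626), a fit that lets arrays of one set deviate together.

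Genes of mitosis were higher in set A almost throughout. Of 44 measured members 38 were apart and higher in set A and 1, the checkpoint gene Bub3, was apart in the other direction, beside 20.7% and 18.3% of all features. The median difference was 0.447, against 0.0248 over all features, and 18 members were higher in set A by at least 0.5 and 0 higher in set B, beside 2.66% and 2.14% of all features. Nusap1, a spindle microtubule protein gene, was at -0.45, -0.45, -0.58 and -0.81 in set A and at -1.51, -1.52, -1.57 and -1.64 in set B, a difference of 0.99. Ccnb2, the cyclin B2 gene, was at 0.12, 0.13, 0.06 and -0.02 in set A and between -0.91 and -0.61 in set B, a difference of 0.85. Ndc80, of the outer kinetochore, and Bub1b, of the spindle checkpoint, differed by 0.84 and 0.82. No array of set B reached set A for any of these 4 genes, and Bub3 was nearly level, at a mean of 0.16 in set A and 0.22 in set B.

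Promoters of 2 members are shown because these genes differ between the sets and because the elements through which mitotic genes are commonly controlled can be read in them. Capitals mark the cell cycle genes homology region (CHR), searched as TTTGAA or TTCGAA on both strands, and the CCAAT box, searched as CCAAT on both strands. The windows run from 250 bases before the start of the gene to 30 bases after it, in RefSeq's GRCm38.p6, and are the minus strand of chr9:70421525-70421804 for Ccnb2 and of chr4:118437314-118437593 for Cdc20, which encodes an activator of the anaphase-promoting complex.
Ccnb2: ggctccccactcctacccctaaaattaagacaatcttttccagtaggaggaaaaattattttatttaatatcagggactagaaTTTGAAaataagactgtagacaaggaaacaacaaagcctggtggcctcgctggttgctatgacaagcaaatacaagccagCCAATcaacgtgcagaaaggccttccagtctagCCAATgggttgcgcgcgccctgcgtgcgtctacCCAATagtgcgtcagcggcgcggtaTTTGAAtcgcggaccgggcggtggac
Cdc20: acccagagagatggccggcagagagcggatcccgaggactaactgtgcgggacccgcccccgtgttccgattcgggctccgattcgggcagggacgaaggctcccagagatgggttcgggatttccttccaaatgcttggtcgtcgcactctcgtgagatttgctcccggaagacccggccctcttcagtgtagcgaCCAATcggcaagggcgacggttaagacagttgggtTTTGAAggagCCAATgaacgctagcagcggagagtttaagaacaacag
Ccnb2 held 2 CHR matches and 3 CCAAT matches, and Cdc20 held 1 and 2. Cdc20 was at 0.05, 0.07, 0.05 and 0.04 in set A and at -0.26, -0.24, -0.30 and -0.37 in set B, a difference of 0.34. Of the 44 measured mitosis genes 38 had a promoter in the table, and 24 of them held a CHR match (63.2%), beside 18.6% of all 27025 promoters. A CCAAT match was found in 27 of the 38 (71.1%), beside 36.6% of all promoters. The actin and serum response lists below, with more members higher in set B, also exceeded that share, at 53.8% and 54.5%. All promoters include those of genes not measured here. A match describes letters in a window and not a bound site.

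M833 stood above both sets for 37 of the 44 mitosis genes. In the labelled comparison 35 of them rose in M833 and 1 fell (limma, adjusted p under 0.05), beside 9.96% and 15.9% of all features, and 30 rose with the sets as a random block. Ndc80 was at -0.20 in set B, 0.65 in set A and 0.90 in M833 on average, and M833 minus WT was 0.68 ± 0.16 (SE, n = 8 per cell type, limma adjusted p = 0.00522). Nusap1 and Bub1b rose by 0.66 and 0.60 (adjusted p = 0.016 and 0.00973). Ccnb2 was level with set A in M833, at 0.06 against 0.07, and its difference from all WT arrays of 0.41 did not pass (adjusted p = 0.0799).

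Genes of DNA replication followed the same side less uniformly. Of 23 measured, 13 were apart and higher in set A (56.5%) and 3, Rfc5, Fen1 and Rrm2, were apart and higher in set B (13%). The shares of all features were 20.7% and 18.3%, and the median difference of the list was 0.17. The thymidine kinase gene Tk1 was at -0.46, -0.44, -0.62 and -0.59 in set A and at -1.15, -1.26, -1.46 and -1.44 in set B, a difference of 0.80. The primase gene Prim1, the DNA ligase gene Lig1 and the replication helicase gene Mcm6 differed by 0.71, 0.68 and 0.67. Rfc5, a clamp loader subunit, was the exception in size, at 0.40 in set A and 0.99 in set B on average. In M833 16 of the 23 rose and 0 fell, beside 9.96% and 15.9% of all features, and 18 lay above both sets. Mcm6 was higher than WT by 0.74 ± 0.12 and Tk1 by 0.65 ± 0.15 (SE, n = 8 per cell type, limma adjusted p = 0.000402 and 0.00548). A CHR match was found in 4 of 21 of their promoters (19%), a share near the 18.6% of all promoters. A CCAAT match was found in 14 (66.7%), beside 36.6% of all promoters.

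Genes of the actin cytoskeleton and of smooth muscle took the opposite side. Of 14 measured, 12 were apart and higher in set B (85.7%) and 0 were apart and higher in set A, beside 18.3% and 20.7% of all features. The median difference was -0.40. With arrays scaled to one spread the counts were 11 and 1. Myl9, the regulatory light chain of smooth muscle myosin, was at 1.11, 1.0, 0.83 and 0.73 in set A and at 2.07, 1.92, 1.85 and 1.86 in set B, a difference of -1.01. Zyx, the focal adhesion protein zyxin, was at 0.28, 0.27, 0.50 and 0.45 in set A and at 1.23, 0.98, 1.31 and 1.46 in set B, a difference of -0.87. Cnn1, calponin, and Cald1, caldesmon, differed by -0.55 and -0.52. Every array was above the reference for these 4 genes, and set B was the higher set in both dyes.

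The promoter of Myl9 is shown because genes of this list are known targets of serum response factor, which binds the CArG box. Capitals mark the CArG box match, searched on both strands, in the plus strand of chr2:156775214-156775493 (RefSeq, GRCm38.p6).
Myl9: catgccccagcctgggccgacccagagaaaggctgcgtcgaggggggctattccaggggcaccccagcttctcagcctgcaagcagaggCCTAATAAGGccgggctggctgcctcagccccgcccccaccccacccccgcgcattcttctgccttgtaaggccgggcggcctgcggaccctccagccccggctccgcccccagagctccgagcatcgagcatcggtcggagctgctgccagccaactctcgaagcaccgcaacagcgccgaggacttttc
A CArG match was found in 3 of 13 promoters of the list (23.1%), beside 1.5% of all promoters, and in 0 of 11 promoters of serum response and immediate early genes. M833 lay below both sets or between them for 13 of the 14 genes. In the labelled comparison 2 fell and 0 rose (limma, adjusted p under 0.05). Over all features 15.9% fell and 9.96% rose, so falls were no more common in this list. With the sets as a random block 0 fell. Myl9 in M833 was between 0.77 and 1.31, close to set A, and M833 minus WT was -0.40 ± 0.19 (SE, n = 8 per cell type, limma adjusted p = 0.13). For Zyx the M833 arrays ran from 0.59 to 1.01, with a mean between those of the sets, and for Cnn1 from 0.20 to 0.65, with a mean of 0.42 beside 0.44 in set A (limma adjusted p = 0.829 and 0.0537).

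**Figure D4:**
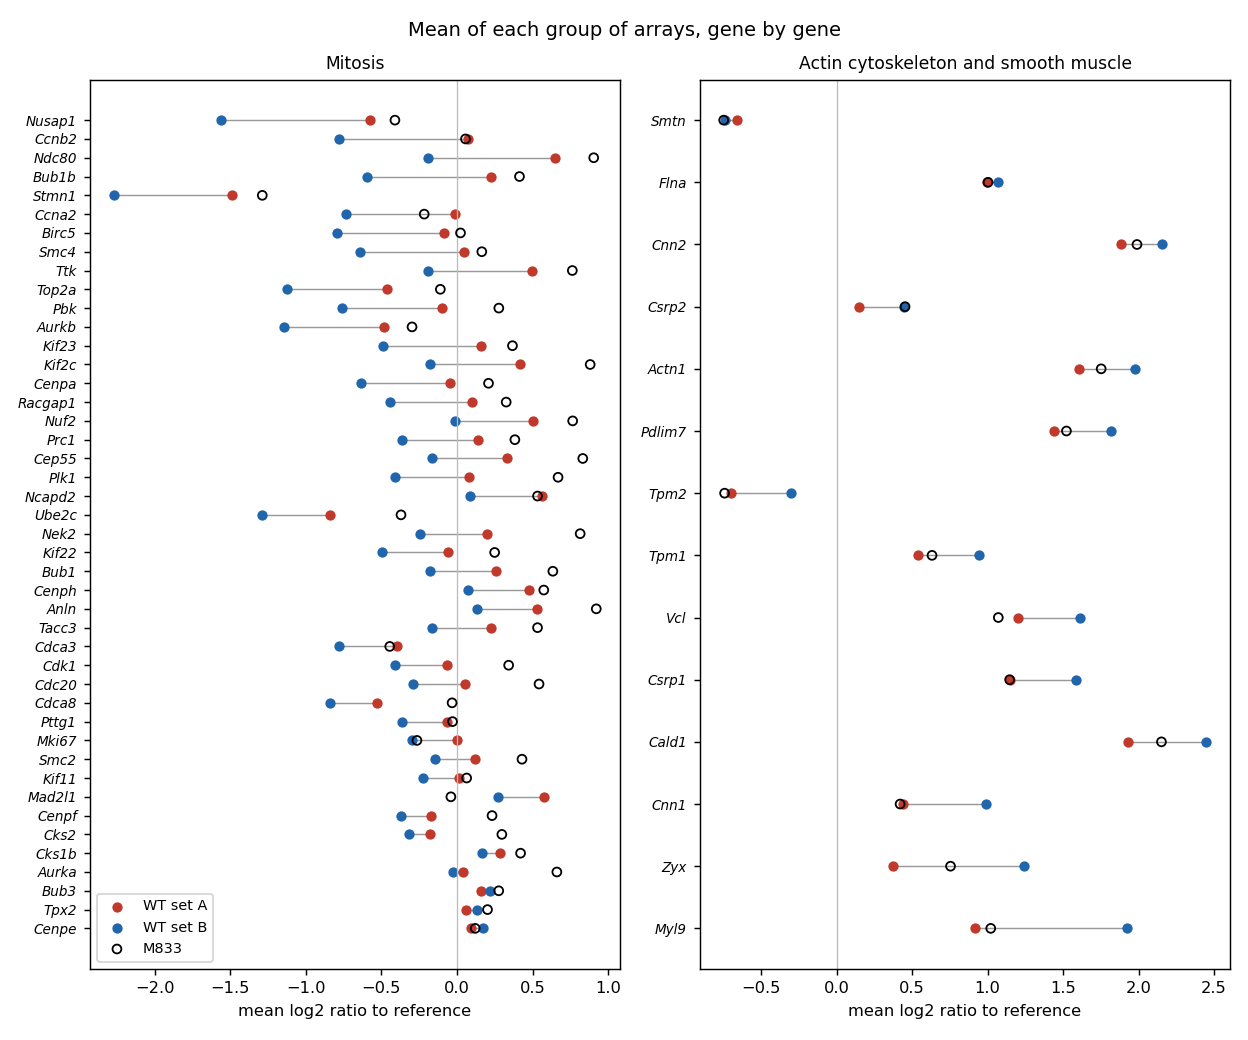
Mean log2 ratio to the reference of WT set A (red, 4 arrays), WT set B (blue, 4 arrays) and M833 (open circles, 8 arrays) for each measured gene of mitosis (left, 44 genes) and of the actin cytoskeleton and smooth muscle (right, 14 genes), ordered by the difference between the sets. Set A is to the right of set B for most mitosis genes and M833 is further right for 37 of them, while set B is to the right for nearly every actin gene.

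Serum response and immediate early genes were mixed. Of 16 measured, 10 were apart and higher in set B (62.5%) and 4 higher in set A (25%), beside 18.3% and 20.7% of all features. Ier3, an early response gene, was at -0.18, -0.01, -0.15 and -0.04 in set A and at 1.16, 1.16, 0.92 and 1.12 in set B, a difference of -1.19. Plaur, the urokinase receptor gene, differed by -1.02, from 0.38 in set A to 1.40 in set B on average. Klf4, a transcription factor gene linked to growth arrest, went the other way and was at -0.28, -0.27, -0.34 and -0.43 in set A and between -1.39 and -1.17 in set B, a difference of 0.95. Egr1 (0.54) and Fosl2 (0.28) were also higher in set A. Fos was higher in set B, but its 4 arrays there ran from -0.51 to 0.51, against -0.73 to -0.67 in set A.

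Matrix genes split by gene and not by class. Of 11 measured collagens 3 were apart on each side (27.3%), beside 20.7% of all features higher in set A and 18.3% higher in set B. Besides Col6a1, the basement membrane collagen gene Col18a1 (0.70) and the fibrillar collagen gene Col3a1 (0.31) were higher in set A, though the 3 probes of Col18a1 ran from 0.14 to 1.18. Col4a1 and Col4a2, the partner chains of basement membrane collagen IV, were higher in set B, with differences of -0.80 and -0.53. Of 22 matrix glycoproteins and proteoglycans 10 were higher in set A and 6 in set B (45.5% and 27.3%). Matn2, an adaptor protein of filamentous matrix, was at 0.13, 0.22, 0.09 and 0.09 in set A and between -1.15 and -0.86 in set B. Tenascin C, encoded by Tnc, was at 2.10, 2.03, 2.64 and 2.55 in set A and at 2.97, 3.06, 3.66 and 3.38 in set B. The 2 differed in opposite directions, by 1.14 for Matn2 and -0.94 for Tnc, and decorin (Dcn, -0.74) and the laminin gene Lamb1 (-0.58) went with Tnc while Ecm1 (0.58) went with Matn2.

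Of 14 proteases and inhibitors 5 were higher in set A and 6 in set B (35.7% and 42.9%, beside 20.7% and 18.3% of all features). Timp3, a matrix-bound inhibitor of metalloproteinases, was at 0.14, 0.19, 0.20 and 0.24 in set A and between 1.09 and 1.23 in set B, a difference of -0.99. Mmp2, the gelatinase gene, was higher in set B too (-0.48), and the aggrecanase family gene Adamts1 (0.68) and Serpinf1 (0.48) were higher in set A. None of the 3 matrix lists lay to one side, with median differences of -0.091, 0.179 and -0.099.

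Growth factor genes were divided between the sets as well. In the IGF axis and among imprinted genes 7 of 19 were higher in set A and 8 in set B (36.8% and 42.1%, beside 20.7% and 18.3% of all features). Igfbp4, an IGF binding protein gene, was at -1.71, -1.71, -1.32 and -1.49 in set A and at -2.81, -2.69, -2.72 and -2.57 in set B, a difference of 1.14, while Igfbp3 went the opposite way. The imprinted genes Mest and H19 were higher in set A by 1.02 and 0.49 and Igf2 was higher in set B, with a difference of -0.68. H19 and Igf2, neighbours that share an imprinting centre, thus differed in opposite directions. Of 13 genes listed for Wnt and BMP signalling 5 were higher in set A and 4 in set B (38.5% and 30.8%). Those higher in set A included Rspo2, Id1 (0.41) and Dkk3 (0.38), and those higher in set B included Rspo3 (-0.41). The count for set A also includes Tcf4 (0.53), the symbol of an E-protein gene and not of the Wnt effector also called TCF4. Rspo2 and Rspo3 encode related ligands and lay on opposite sides, but the value of Rspo3 turned to 0.59 when the values above 8 were kept.

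Mdk, the midkine gene, is the relative of Ptn and lay on the other side. It was at -4.05, -3.81, -3.52 and -4.13 in set A and at -2.77, -2.82, -2.92 and -3.23 in set B, a difference of -0.94. M833 was higher still, between -1.90 and -1.56, and M833 minus WT was 1.63 ± 0.19 (SE, n = 8 per cell type, limma adjusted p = 1.46e-05). Csf1 (-0.63) and Pdgfa (-0.52) were also higher in set B and Cxcl1 (0.51) in set A. Lif was higher in set A by 0.76, with WT replicate 2 at 1.99, and by 0.46 without that array. In all 4 of 12 secreted factors were apart and higher in set A and 6 in set B (33.3% and 50%, beside 20.7% and 18.3% of all features).

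Of 6 measured p53 targets 4 were apart and higher in set B and 1 in set A (66.7% and 16.7%, beside 18.3% and 20.7% of all features). Mdm2, the ubiquitin ligase gene through which p53 limits itself, was at 1.98, 1.97, 1.99 and 2.04 in set A and at 2.61, 2.69, 2.66 and 2.81 in set B, a difference of -0.70. Aen, an apoptosis nuclease gene, differed by -0.62 and Perp by -1.36, while Sesn1 was higher in set A by 0.55. Mdm2 also fell in M833 against WT, by -0.52 ± 0.13 (SE, n = 8 per cell type, limma adjusted p = 0.00871), with M833 between 1.63 and 1.95 and below both sets. Sfn is a p53 target as well, though it was not on this list. It was chosen as a marker for its difference between the sets and so adds nothing to this count.

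Genes of metal handling, redox and detoxification had 10 of 24 members higher in set A and 6 in set B (41.7% and 25%). The shares of all features were 20.7% and 18.3%. Mgst1, a microsomal glutathione transferase gene, was at -0.59, -0.66, -1.13 and -1.05 in set A and between -2.17 and -1.71 in set B, a difference of 1.08. Gstm1 (0.82, with its 3 probes from 0.17 to 1.27) and the epoxide hydrolase gene Ephx1 (0.64) were on the same side, and haem oxygenase (Hmox1, -0.86) and thioredoxin reductase (Txnrd1, -0.52) on the other. Of 11 interferon response genes 4 were higher in set A and 2 in set B (36.4% and 18.2%). Those of set A were led by Irf9 (0.64) and Stat2 (0.53), which encode subunits of the same transcription factor, and those of set B by Ifi30 (-0.56). For the amino acid and ER stress response 7 of 21 were higher in set A and 6 in set B (33.3% and 28.6%). The serine synthesis genes Psat1 (0.57) and Phgdh (0.47) were higher in set A and Nupr1 (-0.52) in set B. Of 19 hypoxia and glycolysis genes 5 were higher in set A and 2 in set B (26.3% and 10.5%, beside 20.7% and 18.3% of all features), with Adm at 0.42 and P4ha1 at -0.44.

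Cholesterol and fatty acid synthesis genes were higher in set A where they were apart, 7 of 13 (53.8%) against 0, beside 20.7% and 18.3% of all features. Mvd, of the mevalonate pathway, was at 1.01, 1.0, 0.63 and 0.68 in set A and at 0.17, 0.16, 0.02 and 0.03 in set B, a difference of 0.74. Fdft1, squalene synthase, Dhcr7, the last enzyme of cholesterol synthesis, and Idi1 differed by 0.73, 0.60 and 0.52. With arrays scaled to one spread 1 member was apart and higher in set B. Ribosomal protein genes shifted by little but in one direction, with a median of 0.101. Of 73 measured, 33 were apart and higher in set A (45.2%) and 1 in set B (1.37%). Rpl22l1, a paralogue of Rpl22, differed by 0.61 and Rpl3 by 0.23, and after each array was centred on its median the count higher in set A was 24. Respiratory chain genes had 7 of 57 higher in set A (12.3%) and 18 in set B (31.6%). Cox6b2 (-0.80) and Uqcrc2 (-0.33) were on the side of set B and the assembly factor gene Ndufaf3 (0.29) on that of set A. Of 103 solute carriers 21 were higher in set A and 22 in set B (20.4% and 21.4%), shares near those of all features. Among single members the phosphate transporter gene Slc20a1 was at 1.07 in set A and 2.02 in set B on average, the glucose transporter gene Slc2a3 at -1.42 and -0.52, and the glutamine transporter gene Slc1a5 at -1.08 and -1.73.

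Lysosomal genes were higher in set B for 15 of 28 (53.6%) and in set A for 3 (10.7%), beside 18.3% and 20.7% of all features. The median difference was -0.124. Ctsc, cathepsin C, was at 0.11, 0.18, -0.17 and -0.17 in set A and at 0.73, 0.97, 0.71 and 0.72 in set B, a difference of -0.79. Cathepsins L and D, encoded by Ctsl and Ctsd, differed by -0.61 and -0.39, and Naglu was higher in set A by 0.28. M833 lay below both sets for 27 of the 28 genes, and 25 fell against WT (limma, adjusted p under 0.05), beside 15.9% of all features, with 25 calls also when the sets were a random block. Of 8 leukocyte and macrophage genes, whose cells are rich in lysosomes, 7 fell in M833 too, with a median of -0.83 for M833 minus WT, and their part in the lysosomal difference was not tested. The position of M833 was thus outside the range of the WT sets here, as it was for mitosis genes.

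**Figure D5:**
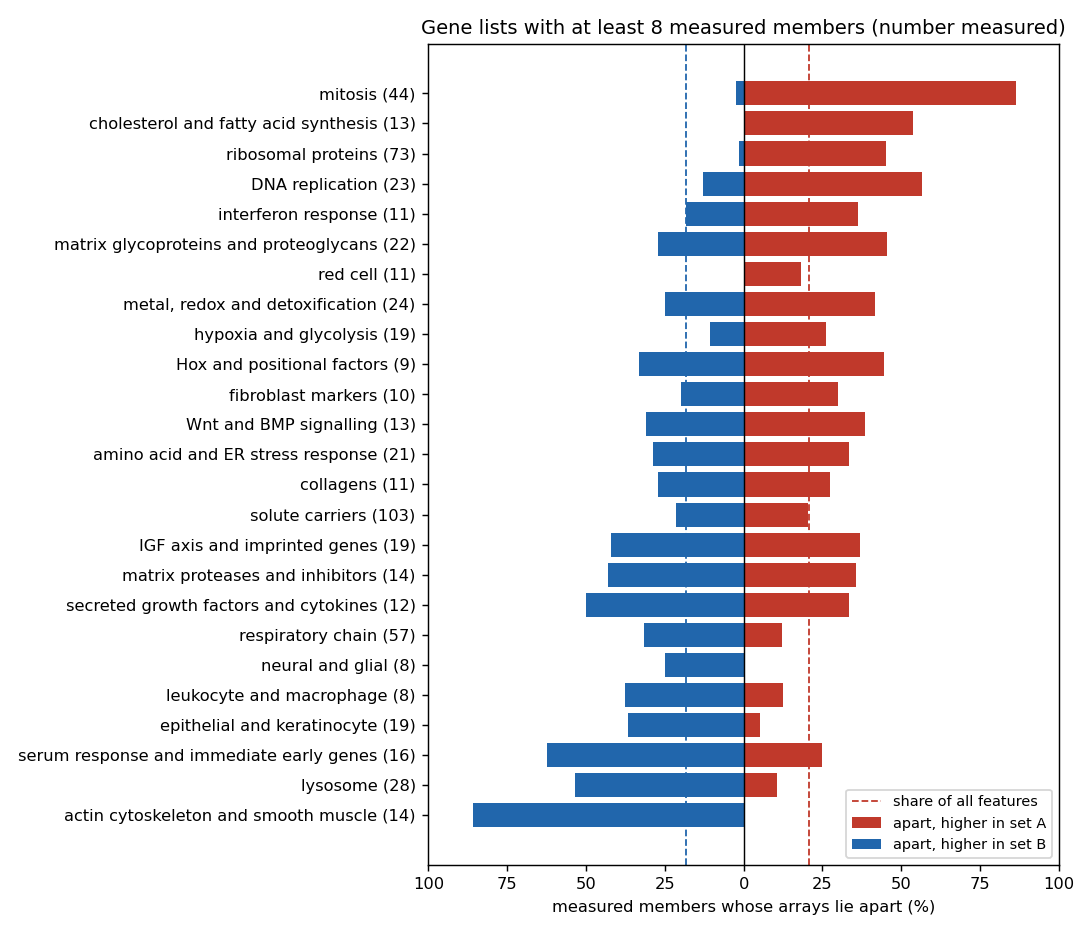
Share of the measured members of each gene list (number measured in brackets) whose arrays lay apart, higher in set A (red, to the right) or higher in set B (blue, to the left), in percent, with the shares of all features as dashed lines at 20.7% and 18.3%. Mitosis genes reach 86.4% on the side of set A and genes of the actin cytoskeleton and smooth muscle 85.7% on the side of set B.

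Markers of cell types are given as whole lists, and their part in the differences above was not tested. Of 10 measured fibroblast markers 3 were apart and higher in set A and 2 in set B (30% and 20%, beside 20.7% and 18.3% of all features). Vim, the mesenchymal intermediate filament gene, was above the reference on every array, at 1.11 in set A and 0.98 in set B on average, while the mesenchymal transcription factor gene Tcf21 was at -2.20 and -1.53 and Dcn at -2.93 and -2.19. A ratio below the reference does not show that a gene is silent. Epithelial and keratinocyte genes were higher in set B for 7 of 19 (36.8%) and in set A for 1 (5.26%). With the fitted effect of dye removed, the mean of the list lay between -2.31 and -2.04 on the arrays of set A. On those of set B it lay between -1.85 and -1.60, without overlap. That mean includes Sfn, a marker chosen for this difference, and it was not computed without Sfn. Besides Sfn and Perp the 7 genes higher in set B included the keratin gene Krt18 (-0.84) and the protease inhibitor gene Spint2 (-0.66). Dsc2 was the 1 member higher in set A (0.16). The other 11 members were not apart, among them the epithelial markers Krt8 (-0.10), Krt19 (0.04), Cdh1 (-0.24) and Epcam (-0.10). With arrays scaled to one spread the epithelial count was 9 and 1.

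Of 8 neural and glial genes 2 were higher in set B (25%) and 0 in set A, beside 18.3% and 20.7% of all features. The progenitor intermediate filament gene Nes was at -0.41, -0.43, -0.05 and -0.24 in set A and between 0.76 and 1.15 in set B. Of 6 endothelial genes Cd34 (0.26) was higher in set A and Gja4 (-0.68) in set B, or 16.7% on each side. Of 8 leukocyte genes 1, the lysozyme gene Lyz2, was higher in set A (12.5%) and 3 in set B (37.5%). Lyz2 was at 0.28, 0.22, -0.14 and -0.18 in set A and at -0.43, -0.49, -0.74 and -1.04 in set B, and the complement gene C1qb was at 0.11 in set A and 0.17 in set B on average. With the fitted effect of dye removed within each cell type, the mean of the leukocyte list lay between -0.484 and -0.449 in set A. It lay between -0.466 and -0.404 in set B and between -1.58 and -1.18 in M833. Against WT 7 of 8 fell in M833, beside 15.9% of all features. Among them were Lyz2 by -1.67 ± 0.14 and C1qb by -1.45 ± 0.04 (SE, n = 8 per cell type, limma adjusted p = 9.5e-07 and 1.16e-11). The list means of the 2 WT sets overlapped, and those of M833 lay below both.

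Few genes of other tissues were measured. Of 11 red cell genes 2 were higher in set A (18.2%), among them Blvrb (0.64), and 0 in set B. The shares of all features were 20.7% and 18.3%. Of 4 liver and endoderm genes 0 were apart. In the muscle, cartilage and fat lists, each with 3 measured genes, Mylpf (-1.02), Col2a1 (-0.42) and Slc2a4 (-0.57) were apart and higher in set B. The myosin light chain gene Myl4 (0.27) of the muscle list was apart and higher in set A. Each of these was 1 of the 3 measured genes of its list (33.3%). Mylpf, the fast muscle myosin light chain gene, was far below the reference on all arrays, between -6.49 and -5.57 in set A and between -5.47 and -4.65 in set B.

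Genes of position and sex are read as checks on the origin of the cells. Of 9 Hox and positional factors 4 were higher in set A and 3 in set B (44.4% and 33.3%), beside 20.7% and 18.3% of all features. With centred arrays the counts were 2 and 3. Alx1, a homeobox gene of craniofacial and limb mesenchyme, was at -0.04, 0.11, -0.26 and -0.25 in set A and at 1.17, 0.96, 1.11 and 0.88 in set B, a difference of -1.14. A gap in Alx1 was not particular to the WT arrays. It lay between 1.04 and 1.42 on M833 replicates 1, 2, 5 and 6 and between 0.04 and 0.40 on M833 replicates 3, 4, 7 and 8. Nr2f1 differed between the WT sets by -0.30 and Hoxc9 by 0.23. Xist, which is transcribed from the inactive X chromosome, was not apart, with set A between 0.19 and 0.38 and set B between 0.14 and 0.25. The Y-linked gene Eif2s3y was at -1.74, -1.94, -1.28 and -1.43 in set A and at -1.51, -1.32, -1.10 and -0.96 in set B, a difference of -0.37. The X-linked genes Eif2s3x (0.39), Kdm5c (0.36) and Kdm6a (0.36) were higher in set A and Ddx3x (-0.14) in set B. Eif2s3x also split the M833 arrays, between 0.24 and 0.43 on replicates 1, 2, 5 and 6 and between -0.32 and -0.05 on replicates 3, 4, 7 and 8. Without the sex of the reference these ratios do not give the sex of either set.

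The position of the M833 mean against the sets is given as a description, since a wider gap between the sets takes in more of the range. Of the 42 features higher in set A by at least 1, M833 was between the sets for 36 (85.7%), and of the 36 higher in set B for 31 (86.1%). Of those 42 features 12 lost that size or were no longer apart without WT replicate 2, whose high values widen the gap. Of all features apart it was between for 52.1% of those higher in set A and 54.1% of those higher in set B. M833 minus WT was called for 3 of those 42 features and 5 of those 36, beside 25.9% of all features. Both sets enter the WT mean of that test and their distance enters its spread, so a gene on which the sets lie far apart could pass only with a larger difference. With the sets as a random block 1453 features were called (11.4%). With each set averaged to 1 value, 0 were called by limma, with 1710 at an unadjusted p under 0.05.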

How the data were processed

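The deposited values were one log2 ratio per probe and array, already normalised by the authors, with limma per the submitters' processing notes. Neither the background correction nor the normalisation method is named there. The log2 scale was inferred from the values and the direction, sample over reference, from the titles. Channel intensities were not used here, so dim probes could not be filtered, and the number of arrays limits the precision. Array medians lay between -0.0171 and 0.0721.

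Of 15247 probes 9600 had 1 gene symbol in the platform annotation, 214 several and 5433 none; 9492 matched a current gene by Entrez number. Probes of a gene were averaged (1810 genes), which gave 12761 features, 7114 of them named. Values above 8 on WT replicate 2 were set missing, and a feature with a missing value was not counted as apart.

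Fits used limma 3.58.1 in R 4.3.3 (lmFit, eBayes). The difference between the sets was the set coefficient over the 8 WT arrays with dye orientation as a term, with SDs within sets after each dye's mean, and no test. M833 minus WT was fitted on all 16 arrays with dye as a term, and the set by dye interaction on the WT arrays, with Benjamini-Hochberg adjustment over all features and a threshold of 0.05. A value dropped on WT replicate 2 leaves that feature with 1 array in Cy5 of set A. The fits were tested on simulated data.

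Named genes were the 8 markers, the 15 largest named differences apart in each direction, and in each of 32 lists up to 4 members apart in the direction of more members and up to 3 in the other; measured sex-linked genes were named too, and Cdc20, Mdh1 and Rabgap1 were picked with their values in view. The sets, the members and the lists were chosen with earlier results of these data known. Replicate numbers follow accession order and only name arrays. Promoters came from RefSeq sequences of GRCm38.p6, matched by symbol, and motifs were searched as exact letters. Alternatives tried were keeping the high values or setting those above 4 missing (added after seeing the data), centring, scaling, no dye term, single dyes, single probes, a filter on spread, either set left out, sets taken as a random block or averaged, and each array left out.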

Additional observations from a re-analysis of the deposited data

Results flagged for a closer look

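Among the 135 named genes, 405 groups of 4 or 8 arrays were checked for 1 array that stood far from the rest of its group. Chance gives about 1 in 20 groups, but each group mixed both dyes, so that rate may not hold here. Such arrays were found in 13 groups, fewer than 1 in 20, so their number shows no excess. WT replicate 2 accounted for 4 of them in set A, with Ccdc66 at 7.49, Ccser1 at 7.78, Pgghg at 6.03 and Il1rl2 at 3.78, while the other 3 arrays of the set lay between 0.18 and 0.38, -0.02 and 0.21, 0.01 and 0.28, and 0.26 and 0.37. In set B, Igf1 was at 1.61 on WT replicate 7 against -1.01 to -0.80 on the others, and Ier3 on the same array was at 0.92 against 1.12 to 1.16. WT replicate 8 stood high for Aldh1a2, at 0.63, and for Aen, at 1.27. WT replicate 4 stood high for Ctsc, at 0.97, and WT replicate 3 for Rrm2, at -0.18. In set A, Lama1 was at -1.15 on WT replicate 5 against -1.56 to -1.51. Among the M833 arrays, Rrm2 was at 0.47 on replicate 2 and Gstm1 at -1.62 on replicate 1.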

How the results depend on the processing

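With centred arrays 2220 features were apart and higher in set A and 2607 higher in set B. The mitosis, DNA replication, cholesterol and ribosomal protein lists had more members higher in set A and the actin, serum response, lysosome, epithelial and p53 lists more higher in set B under both centring and scaling, while the side with more members changed under one or both for the Hox, IGF, Wnt, collagen, amino acid and ER stress, fibroblast, endothelial, muscle, cartilage and solute carrier lists. Without a dye term 1407 features were apart and higher in set A and 1332 higher in set B. In Cy5 alone, where 2 arrays face 2, 4768 were higher in set A, 183 by at least 1, and 59 higher in set B by at least 1; in Cy3 alone 3656 were higher in set B. Among features with a spread under the median, 9 and 10 differed by at least 1. Leaving out 1 WT array gave 2902 to 3453 features higher in set A and 2562 to 2734 higher in set B, and 32 to 82 and 32 to 47 by at least 1, the highest on the side of set A being 82 without WT replicate 5 and 79 without WT replicate 8; with fewer arrays fewer comparisons have to hold. The interaction of set and dye ran from 0 to 376 calls (376 without WT replicate 1, 99 without WT replicate 2, and 2, 1 and 4 without WT replicates 3, 5 and 6); the cause was not tested. When values above 8 were kept, Rspo3 turned to 0.59.

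M833 minus WT gave 1271 higher and 2030 lower features, 1118 to 1269 and 1760 to 2060 with 1 array left out, 779 and 1218 without a dye term, 1565 and 1652 with centred arrays, 554 and 899 with sets as a random block, and 0 and 0 with each set averaged to 1 value. Without WT set A the differences of Sfn, Parm1, Col6a1, Ptn, Igsf10 and Slc29a1 turned to -0.79, -1.01, 0.62, 0.51, 0.54 and 0.71, and without WT set B those of Tnfrsf12a, Gas1 and Zyx to 0.49, -0.66 and 0.38; since these genes were chosen for the distance between the sets, this describes that distance and is no test. No paired analysis was possible because the labels give no replicate numbers. Dim probes could not be told from bright ones, since signal over background was not used here.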
